A study of Mus musculus with 6 samples.

Results

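The genes described here are the cyclins, cyclin-dependent kinases (CDKs), CDK inhibitors, Cdc25 phosphatases, retinoblastoma-family pocket proteins and E2F transcription factors that drive and restrain the mammalian cell cycle. They were chosen by gene symbol among the protein-coding genes of the mouse annotation (GENCODE M21, GRCm38), and 45 of 21853 genes were taken. Cdkn1a and Cdkn1c were left out by the rule. A gene was called marked when a peak of H3K27ac in control cells overlapped a window of 1 kb on each side of any of its transcription start sites (TSSs), all protein-coding isoforms included.

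H3K27ac, the acetylation of lysine 27 on histone H3, was measured by ChIP-seq (chromatin immunoprecipitation followed by sequencing) in mouse embryonic stem cells (mESCs) of the line E14Tg2A. The growth protocol in the labels names it E14Tg2A Rosa26-Cre Oct4-IRES-Puro, whereas the methods of the study name ES-E14TG2a without these insertions, so whether the cells carried them cannot be read here. Control cells received DMSO, and the treated groups received NVP-2, an inhibitor of the kinase CDK9, or actinomycin D (ActD), a DNA-binding blocker of transcription, each for 2 h with 2 replicates per group. The labels give 100 nM for NVP-2 and 800 nM for ActD, and the protocol text gives ActD by mass, as 1 µg per ml. For NVP-2 the methods of the study also give 100 nM, whereas its figure legend for the ChIP-seq gives 1 µM. All groups grew in N2B27 medium with LIF and inhibitors of MEK and GSK3, and chromatin of the human line HEK293T was added to every sample as a spike-in. The labels name the same line for all groups.

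What was analysed was a deposited list of 22973 control peaks, which the labels name for both control replicates. It was read as 1 list for both, a reading that rests on those labels, since the methods do not state how the replicates were combined. It holds the start and end of each peak in mm10, with no height and no reads per peak or replicate. Replicate error, peak heights and the effects of NVP-2 and ActD were therefore not analysed here. Peaks closer than 2 kb had been merged, and weak peaks had been removed, so a promoter without a listed peak may have lacked signal or missed a threshold. The intervals given with shares are 95% Wilson intervals and cover counting error only. The promoters of 8 of 8 genes that mark embryonic stem cells, among them Pou5f1, Sox2 and Nanog, held a peak. Of 12 markers of endoderm, mesoderm, neural, trophoblast or fibroblast cells, 2 were marked, Gata6 by a peak of 2607 bp and Twist1 by a peak of 476 bp.

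A cell divides when cyclins, which are made and destroyed in each cycle, switch on their partner CDKs. D cyclins with Cdk4 and Cdk6, and then cyclin E with Cdk2, phosphorylate the pocket proteins and so release E2F factors, which switch on genes for DNA synthesis. Cyclin B with Cdk1 drives mitosis, and embryonic stem cells are known for a short G1 phase and rapid cycles. H3K27ac marks active promoters and enhancers.

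H3K27ac peaks were present at the promoters of 40 of the 45 genes. This was 88.9% (76.5 to 95.2%), beside 51.0% of all protein-coding genes (50.4 to 51.7%). A TSS lay inside a peak for 39 genes, or 86.7%, beside 47.7% of all protein-coding genes. Counted by TSS, 98 of 120 start sites of these genes had a peak within the window, or 81.7%, beside 49.7% of 54361 start sites. The genes without a promoter peak were Ccnd2, Ccnb3, Rbl2, Cdk14 and Cdk15. The map of peaks around each start site shows where the 42 promoter peaks of the other genes lay.

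**Figure D1:**
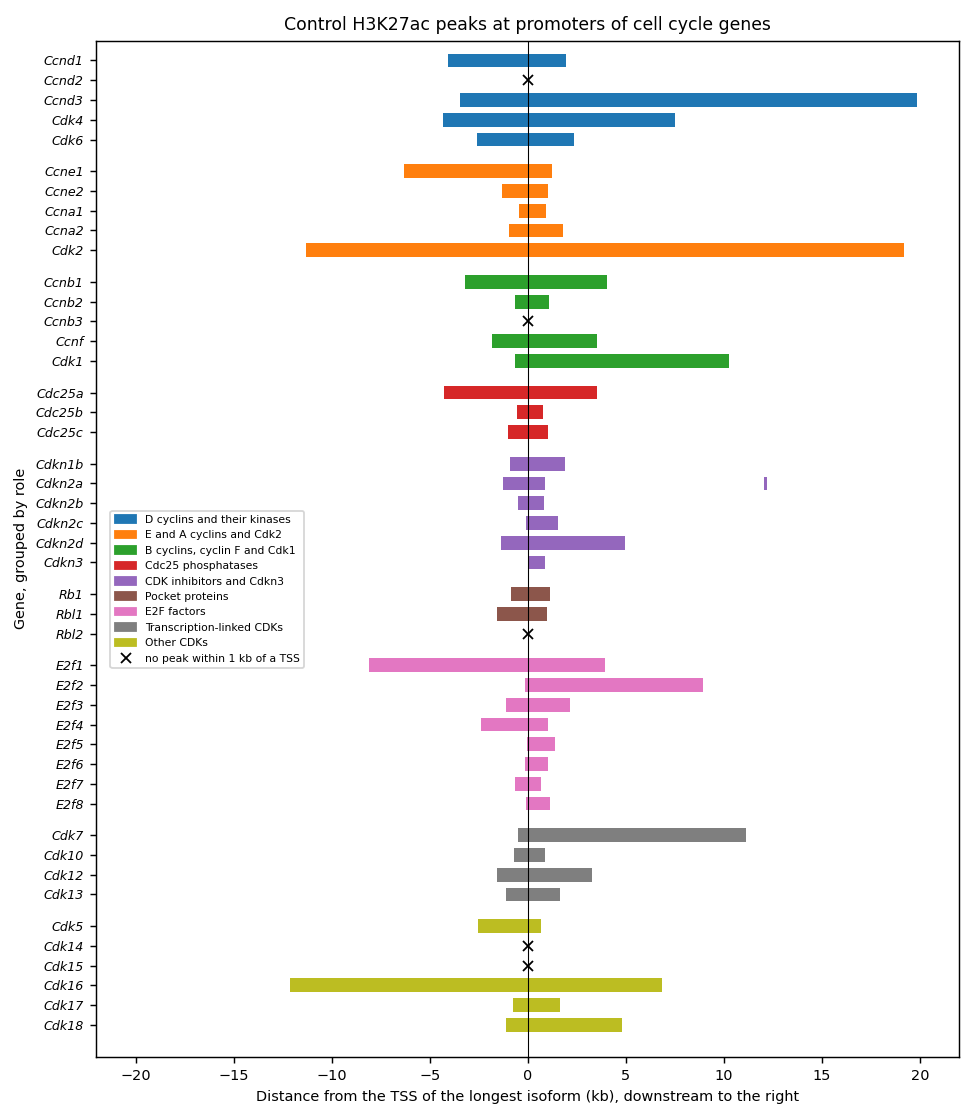
Control H3K27ac peaks (bars) at the promoters of the 45 cell cycle genes, drawn as distance in kb from the TSS of the longest isoform with transcription to the right, coloured by role. Crosses mark the 5 genes without a peak within 1 kb of a TSS, and the second peak of Ccnd3, 8828 bp wide at a far downstream TSS, lies outside the plotted range.

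The sequences just upstream of 6 start sites are printed to show what lies under the marked promoters of these genes. E2f1, Ccne1, Ccna2, Cdk1 and Ccnb1 are textbook cases of promoters driven by the cell cycle, and each of the 5 was covered by a peak. Ccnb3 is the unmarked gene with the lowest GC content. Each run holds the 200 bases before the TSS of the longest isoform, 5′ to 3′ on the gene's own strand (minus for all 6), from the GRCm38 genome (RefSeq sequence). Capitals mark the motifs that were searched for on both strands, namely E2F sites, cell cycle homology regions (CHR), CCAAT boxes, GC boxes, TATA boxes and cAMP response elements (CRE). An E2F site was any of TTTCCCGC, TTTCGCGC, TTTGCCGC and TTTGGCGC. A CHR was the word TTTGAA or else the word TTCGAA. A GC box was read as GGGCGG, and the CCAAT box by its name. A TATA box was read as TATAAA, and a CRE as TGACGTCA. No matches of different motifs overlapped each other in these promoters. A match is a match of letters and does not show a bound factor. The runs are chr2:154569893-154570092 for E2f1, chr7:38107535-38107734 for Ccne1, chr3:36572151-36572350 for Ccna2, chr10:69352939-69353138 for Cdk1, chr13:100786571-100786770 for Ccnb1 and chrX:7041620-7041819 for Ccnb3.
E2f1: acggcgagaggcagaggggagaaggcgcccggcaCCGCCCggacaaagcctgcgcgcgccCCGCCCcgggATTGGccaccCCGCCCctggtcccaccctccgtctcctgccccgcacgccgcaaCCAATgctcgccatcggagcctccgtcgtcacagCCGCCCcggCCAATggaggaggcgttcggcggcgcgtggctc
Ccne1: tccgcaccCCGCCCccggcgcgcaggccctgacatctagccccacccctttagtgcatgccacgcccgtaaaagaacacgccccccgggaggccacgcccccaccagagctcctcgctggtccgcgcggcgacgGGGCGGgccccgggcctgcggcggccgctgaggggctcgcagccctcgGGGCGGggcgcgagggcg
Ccna2: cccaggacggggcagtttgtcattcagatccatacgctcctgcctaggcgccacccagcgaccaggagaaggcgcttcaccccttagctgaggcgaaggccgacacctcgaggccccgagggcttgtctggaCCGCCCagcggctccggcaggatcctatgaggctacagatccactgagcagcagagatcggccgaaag
Cdk1: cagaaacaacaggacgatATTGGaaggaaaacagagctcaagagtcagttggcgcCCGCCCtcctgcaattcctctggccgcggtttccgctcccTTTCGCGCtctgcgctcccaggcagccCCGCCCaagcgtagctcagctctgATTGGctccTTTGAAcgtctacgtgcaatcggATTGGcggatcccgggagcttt
Ccnb1: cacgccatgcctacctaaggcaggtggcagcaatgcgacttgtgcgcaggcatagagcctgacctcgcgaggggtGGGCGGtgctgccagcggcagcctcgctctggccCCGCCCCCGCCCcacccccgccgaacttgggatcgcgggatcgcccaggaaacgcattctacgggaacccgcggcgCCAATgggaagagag
Ccnb3: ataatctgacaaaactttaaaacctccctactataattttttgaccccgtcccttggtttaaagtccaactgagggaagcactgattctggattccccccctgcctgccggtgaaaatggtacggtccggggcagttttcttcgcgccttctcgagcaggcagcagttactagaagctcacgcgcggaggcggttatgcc
In the run of Cdk1, the E2F site lay 105 to 98 bases before the TSS and the CHR 45 to 40 bases before it, with a CCAAT box at 54 to 50 bases. The E2f1 run held 3 CCAAT boxes and 4 GC boxes, and its E2F sites lay past the TSS, outside the printed run. Ccne1 had 3 GC boxes and Ccna2 had 1 in the printed bases, and the run of the unmarked Ccnb3 held none of the motifs. Ccnb3 was picked by its GC content and does not stand for all unmarked genes. In the longer sequence windows described further on, the unmarked Ccnd2, Rbl2, Cdk14 and Cdk15 held a CHR, a GC box or both. The marked Cdkn2c, E2f4, E2f6 and Cdk17 held none of the motifs there, like Ccnb3.

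D cyclins and their kinases, which carry growth signals into the cycle, were marked at 4 of 5 genes, with a median peak width of 8828 bp. Ccnd3, cyclin D3, had 2 promoter peaks. The wider of them, 23295 bp on chromosome 17 from 47501591 to 47524885, began 3460 bp upstream of the main TSS and ran 19834 bp into the gene, and it also marked Taf8. The other, 8828 bp, lay at a downstream start site. Together the peaks of the region covered 51% of the 94.6 kb of Ccnd3. Cdk4 lay whole within a peak of 11808 bp that also marked March9 and Tspan31. Ccnd1, cyclin D1, had a peak of 5995 bp that reached 4071 bp upstream and 1923 bp downstream of the TSS. The peak of Cdk6 spanned 4938 bp, or 2.52% of a gene of 190 kb.

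Ccnd2, cyclin D2, was the D cyclin without a promoter peak at any of its 4 start sites. Its nearest peak, 534 bp wide on chromosome 6 from 127149443 to 127149976, lay in an intron 1084 bp downstream of the main TSS and 1031 bp from the closest TSS. This was just outside the window, and Ccnd2 was marked with windows of 2 kb or with the TSSs of all transcript types. A further peak of 2178 bp lay 28.7 kb downstream of the TSS, past the end of the gene.

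E and A cyclins and Cdk2, which act at the start of DNA synthesis and through it, were marked at 5 of 5 genes. Cdk2 had the widest peak of the 45 genes, 30501 bp on chromosome 10 from 128685845 to 128716345, and 98.7% of the peaks at protein-coding promoters were narrower. It held all of Cdk2, reached 11315 bp upstream and 19185 bp downstream of the TSS, and also marked Pmel and Rab5b, so its width cannot be ascribed to Cdk2 alone. Ccne1, cyclin E1, had a peak of 7541 bp that lay mostly before the gene, with 6333 bp upstream of the TSS and 1207 bp downstream. Its paralogue Ccne2 had a peak of 2325 bp. Ccna2, the cyclin A of dividing somatic cells, had 2750 bp, and Ccna1, known mainly from the germ line, had 1389 bp. Ccne1 and Ccna2 thus had wider peaks than their paralogues.

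B cyclins, cyclin F and Cdk1, the mitotic set, were marked at 4 of 5 genes. Cdk1, the kinase of mitosis, had a peak of 10904 bp on chromosome 10 from 69342692 to 69353595. Only 657 bp of it lay upstream of the TSS and 10246 bp downstream, covering 57.6% of the gene. Ccnb1, cyclin B1, had 7224 bp, covering 50.9% of the gene, and Ccnf, the cyclin-like subunit of a ubiquitin ligase, had 5349 bp. Ccnb2, cyclin B2, had 1741 bp. Ccnb3, a cyclin best known from meiosis, was unmarked at both of its TSSs on the X chromosome, and the nearest peak lay 277 kb away.

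The 3 Cdc25 phosphatases, which remove inhibitory phosphates from CDKs, were all marked. Cdc25a, which acts from the G1 phase on, had a peak of 7814 bp, with 4281 bp upstream and 3532 bp downstream of the TSS. Cdc25c had 2036 bp and Cdc25b had 1353 bp, and the peak of Cdc25b also marked Spef1. Cdc25a had a further peak of 21472 bp at the end of the gene, from 17.4 to 38.9 kb past its TSS, which began within the gene, ran past its end and met no window of a protein-coding TSS.

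CDK inhibitors and Cdkn3, a phosphatase that acts on CDKs, were marked at 6 of 6 genes, and their median width of 1621 bp was the lowest of the 9 roles. Cdkn2d, the INK4-type inhibitor p19, lay whole within a peak of 6312 bp that also marked Kri1. Cdkn1b, which encodes p27, had 2774 bp, and Cdkn2c, which encodes p18, had 1621 bp. The peak of Cdkn3 spanned 855 bp and began 6 bp past its closest TSS, so that no TSS of Cdkn3 lay inside it.

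Cdkn2a encodes p19Arf and p16Ink4a from separate start sites, and Cdkn2b, which encodes p15, lies 11.6 kb upstream of it on chromosome 4. The upstream (Arf) start site of Cdkn2a lay in a peak of 2153 bp, from 1281 bp before to 871 bp after it. The Ink4a start site, 12461 bp further downstream, lay outside any peak. A peak of 157 bp ended 289 bp before it, and only 0.127% of the peaks at protein-coding promoters were narrower. Cdkn2b had a peak of 1319 bp over its TSS. The locus thus held 3 separate peaks, as the map of the Cdkn2a, Ccnd2 and Rbl2 regions shows.

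**Figure D2:**
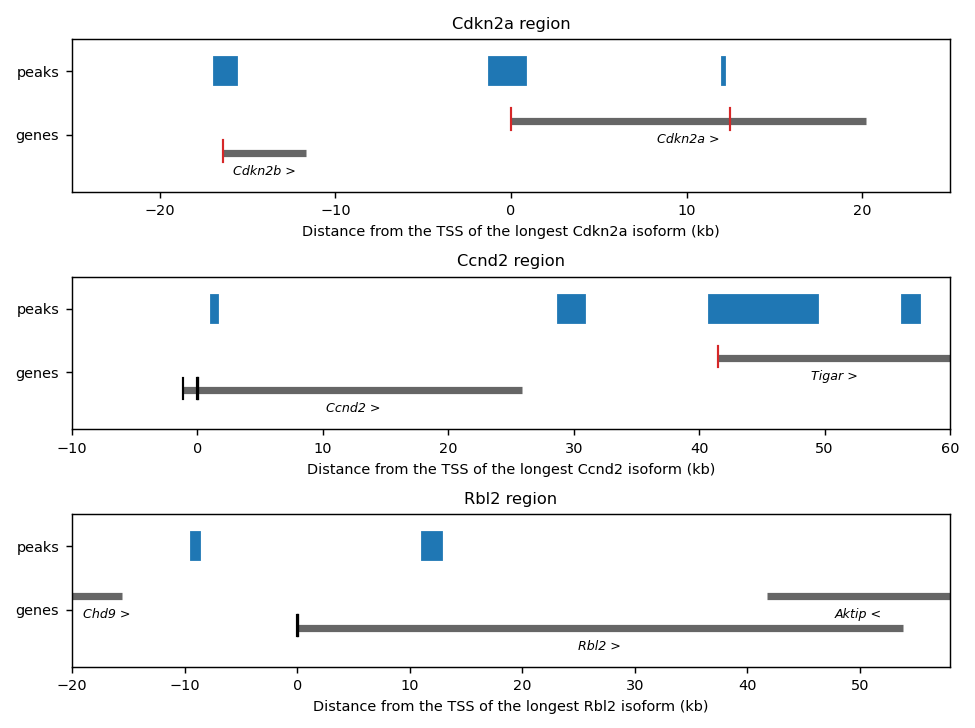
Control H3K27ac peaks (blue), genes (grey bars, > in the direction of the named gene and < opposite to it) and TSSs (red where a peak lay within 1 kb, black where none did) in the regions of Cdkn2a, Ccnd2 and Rbl2, in kb from the TSS of the longest isoform. The narrow peak at the second Cdkn2a TSS spans 157 bp, and the peaks nearest to Ccnd2 and Rbl2 start 1084 bp downstream and end 8663 bp upstream of the TSS.

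Pocket proteins, which hold E2F factors in check, were marked at 2 of 3 genes. Rbl1, which encodes p107, had a peak of 2525 bp, and Rb1, the retinoblastoma protein, had 2005 bp, or 0.79% of a gene of 142 kb. Rb1 had another peak of 2932 bp in an intron from 69.9 to 72.8 kb past its TSS. The widest peak within Rb1, 8605 bp from 86.2 to 94.8 kb past the TSS, marked the promoter of Lpar6, which lies inside the gene. Rbl2, which encodes p130, the pocket protein of resting cells, had no promoter peak. Its nearest peak, 725 bp wide, ended 8663 bp upstream of the TSS, and a peak of 1821 bp lay in an intron 11064 to 12884 bp downstream.

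E2F factors were marked at 8 of 8 genes, and their widths differed more than 10-fold, from 1167 to 12034 bp. Among the activators, E2f1 had 12034 bp on chromosome 2 from 154565965 to 154577998, with 8106 bp of it upstream of the TSS. E2f2 had 9056 bp, of which 8905 bp lay downstream, over the gene. E2f3 had 3300 bp. Among the repressors, E2f4 had 3431 bp in a peak shared with Exoc3l. E2f5, E2f6, E2f7 and E2f8 had 1454, 1167, 1309 and 1221 bp, all below the lower quartile of protein-coding promoter peaks, 1486 bp. The 3 activators, E2f1 to E2f3, thus had wider peaks than E2f5 to E2f8, and E2f4 lay between E2f2 and E2f3.

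The 4 CDKs grouped as linked to transcription were all marked. Cdk7, which activates other CDKs and phosphorylates RNA polymerase II, had a peak of 11644 bp, of which 11121 bp lay downstream of the TSS. Cdk12 and Cdk13, elongation kinases, had 4868 and 2779 bp, and Cdk10 had 1591 bp. Cdk7 and Ccnb1 are neighbours on chromosome 13 with 47.7 kb between them, and each had its own peak.

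The remaining kinases act largely outside the division cycle, and 4 of 6 were marked. Cdk16 had a peak of 18959 bp that reached 12139 bp upstream and 6819 bp downstream of the TSS. It lies on the X chromosome, where 275 promoter peaks of protein-coding genes had a median width of 5633 bp, beside 2023 bp on autosomes. Cdk18 had 5904 bp, Cdk5, a neuronal kinase, had 3254 bp in a peak shared with Slc4a2, and Cdk17 had 2385 bp. Cdk14 was unmarked at all 6 of its TSSs, had no peak in its 617 kb, and its nearest peak lay 83.8 kb from a TSS. Cdk15 was unmarked, with the nearest peak 18.8 kb away and none in its 96.1 kb.

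The 42 promoter peaks of these genes had a median width of 3016.5 bp, with a 95% interval of the median from 2153 to 5904 bp. The 10223 peaks at protein-coding promoters, these 42 included, had a median of 2066 bp and quartiles of 1486 and 4507 bp. Above that median lay 28 of the 42, and above the upper quartile lay 18. The promoter peak was at least 10 kb wide at 7 of the 40 marked genes, or 17.5%, beside 11.3% of marked protein-coding genes. These were Cdk2, Ccnd3, Cdk16, E2f1, Cdk4, Cdk7 and Cdk1. The 10 widest peaks by gene were completed by E2f2, Cdc25a and Ccne1. Narrowest by gene were Cdkn3, E2f6, E2f8, E2f7 and Cdkn2b. The peak also marked another protein-coding gene at 7 of 40 genes, or 17.5%, beside 27.2% of marked protein-coding genes. Where 2 genes share a peak, the list does not show to which of them it belongs.

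**Figure D3:**
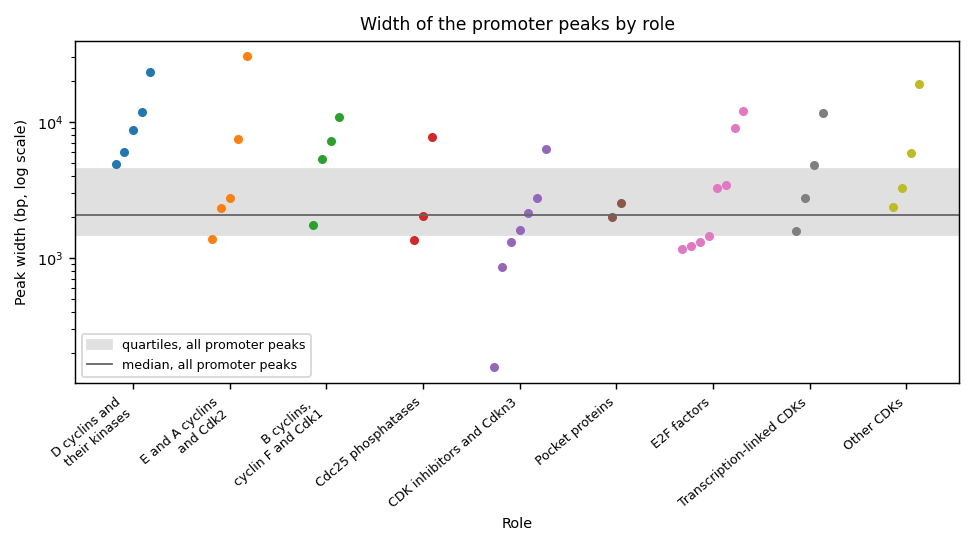
Width in bp (log scale) of the 42 H3K27ac peaks at promoters of cell cycle genes, 1 point per peak, by role. The grey band gives the quartiles, 1486 and 4507 bp, and the line the median, 2066 bp, of the 10223 peaks at protein-coding promoters. The D cyclin group lies wholly above the band.

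Peaks reached further into the gene than away from it at 27 of the 39 genes whose main TSS lay in a peak, or 69.2%, beside 65.8% of 9663 such protein-coding genes. The median reach was 1131 bp upstream and 1647 bp downstream, beside 904 and 1210 bp. At the main TSS 86.7% of the cell cycle genes were covered, beside 44.2% of all protein-coding genes. Among marked genes alone, 39 of 40 cell cycle genes were covered there, or 97.5%, beside 86.7% of marked protein-coding genes. At 1 kb downstream the shares of marked genes were 77.5% and 58.5%, and at 1 kb upstream 55% and 39.5%. The order was the other way around 5 kb upstream, with 10% and 13.1%, and turned again at 10 kb upstream, with 15% and 11.7%. At 10 kb downstream the shares were 15% and 12%. The marked cell cycle genes lay above the marked protein-coding genes at 181 of the positions read every 0.1 kb and below them at the other 20, with no test made, and the shares far from the TSS rest on few genes, 4 of 40 at 5 kb upstream.

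**Figure D4:**
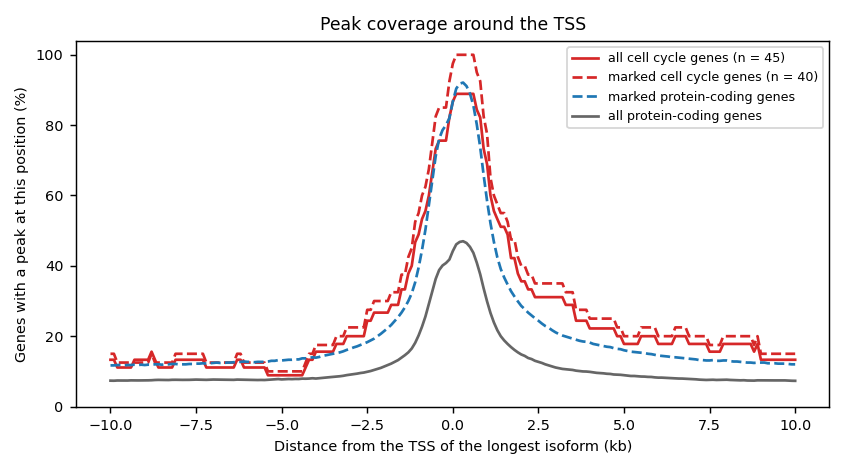
Share of genes (%) with a control H3K27ac peak at each distance in kb from the TSS of the longest isoform, downstream to the right, for the 45 cell cycle genes and all protein-coding genes (solid lines) and the marked ones among each (dashed lines). At the TSS 86.7% of the cell cycle genes and 44.2% of all protein-coding genes were covered.

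Promoter sequence was read from 250 bases before to 50 bases after the main TSS. The cell cycle promoters had a median GC content of 62.7% and a median CpG observed to expected ratio of 0.851, whereas all protein-coding promoters had 55.7% and 0.554. Marked protein-coding promoters had 60.7% and 0.773. With a split of the ratio at 0.6, chosen after seeing the data, 38 of the 45 genes were CpG rich. Of these 35 were marked, or 92.1%, beside 80.4% of 10177 CpG-rich protein-coding promoters. In the CpG-poor class 5 of 7 were marked, beside 25.4% of 11676. The CpG-poor genes were Ccnd1, Ccnd2, Ccnd3, Cdkn2c, Cdk15, Cdk16 and Cdk18, so that all 3 D cyclins were among them. Ccnd1 and Ccnd2 had nearly the same composition, with GC contents of 62.7% and 62.3% and ratios of 0.472 and 0.456. Ccnd1 was marked while Ccnd2 was not, though Ccnd2 was marked with windows of 2 kb or with all transcript types. Cdk14 combined a GC content of 79.3% and a ratio of 1.12 with no peak.

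**Figure D5:**
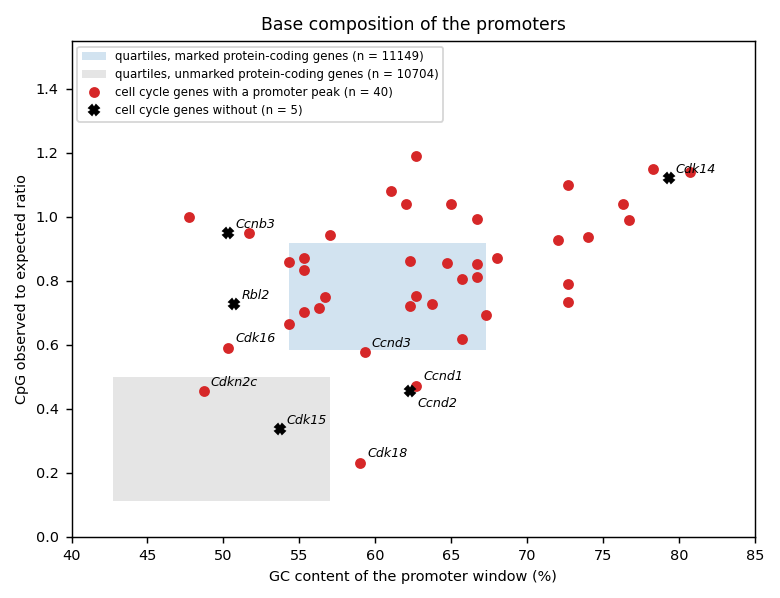
GC content (%) and CpG observed to expected ratio of the promoter window of the 45 cell cycle genes, with red points for marked and black crosses for unmarked genes. Shaded boxes span the quartiles of marked and unmarked protein-coding promoters, and named points are the unmarked genes and those with a ratio below 0.6.

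An E2F site was found in 10 of the 45 promoter windows, or 22.2%, beside 2.82% of all protein-coding promoters. The genes were Cdk2, Cdk1, Cdc25a, Cdkn2a, Rb1, Rbl1, E2f1, E2f2, E2f3 and E2f7, and all 10 were marked. Among protein-coding promoters with an E2F site 78.2% were marked. All 4 E2F words hold a CpG, and within the CpG-rich class the shares of promoters with a site were 26.3% of the cell cycle genes and 4.82% of protein-coding genes. All 11 sites lay inside a control peak. The main TSS of all 10 genes lay in a peak too, so with a window this close to the TSS that outcome was nearly fixed in advance. The sites are shown in capitals with 10 bases on each side, on the strand of the gene (GRCm38), chosen after the search because they carry these matches.
Cdk2, chr10:128705174-128705201, minus strand: accaggaactGCGGGAAAgttgtgcagc
Cdk1, chr10:69353026-69353053, minus strand: ttccgctcccTTTCGCGCtctgcgctcc
Cdc25a, chr9:109875502-109875529, plus strand: gtgaattccgTTTGGCGCcaactaggaa
Cdkn2a, chr4:89294701-89294728, minus strand: tctgggaagcTTTCCCGCgcgactgggg
Rb1, chr14:73325803-73325830, minus strand: gaagtgacgtTTTCCCGCggttggcccg
Rbl1, chr2:157204535-157204562, minus strand: agaaggcgatTTTCGCGCgctttgtcgc
E2f1, chr2:154569871-154569898, minus strand: tggctctttcGCGGCAAAaaggatttgg
E2f1, chr2:154569858-154569885, minus strand: gcaaaaaggaTTTGGCGCgtaaaagtgg
E2f2, chr4:136172303-136172330, plus strand: cggcatatagTTTGGCGCtaaaaaaaaa
E2f3, chr13:29986057-29986084, minus strand: tgaaaagccgGCGGGAAAtctgagtttc
E2f7, chr10:110745231-110745258, plus strand: ccgcgtccccGCGGGAAAcgctcccgcg
Read from the TSS, the sites began 227 bases before it in E2f7, 161 in Cdk2, 105 in Cdk1, 81 in E2f2, 67 in Cdc25a, 65 in Cdkn2a, 40 in Rbl1 and 11 in E2f3. The site of Rb1 began at base 3 of the transcript. E2f1 had 2 sites, at bases 5 and 18 of the transcript counted from 1, in opposite orientations. Cdkn2a had its site at the Arf start site. These matches depend on the TSS used. With the APPRIS principal isoform 9 promoters had a site and E2f3 had none, and with RefSeq promoter windows 8 of the 35 genes matched had a site, or 22.9% beside 3.31%, and E2f1 had none.

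CHR elements, which serve the DREAM and MuvB complexes at genes of mitosis, were found in 13 windows, or 28.9%, beside 17.4% of protein-coding promoters. With 500 bases on each side of the TSS the shares were close, 51.1% beside 47.2%. Of the 13 genes 11 were marked, and the unmarked were Ccnd2 and Rbl2, beside 39.7% marked among protein-coding promoters with a CHR. In the CpG-rich class 28.9% of the cell cycle genes and 11.9% of protein-coding genes had a CHR. A CHR together with a CCAAT box was found in 10 of 45 windows, beside 1692 of 21853 protein-coding promoters, or 7.74%. The genes were Ccnb2, Ccnf, Cdk1, Cdc25b, Cdc25c, Cdkn2d, Cdkn3, E2f3, E2f8 and Cdk16. With the APPRIS isoform E2f3 and Cdk16 had neither element. The share of this pair in the CpG-rich class was not computed. Ccnb2, Ccnf and Cdk1 of the mitotic set had 2 CHR each, shown here in the same way. All 6 lay inside a control peak, which was again nearly fixed in advance because the main TSSs of these genes lay in peaks.
Ccnb2, chr9:70421706-70421731, minus strand: gggactagaaTTTGAAaataagactg
Ccnb2, chr9:70421535-70421560, minus strand: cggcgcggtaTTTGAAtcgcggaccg
Ccnf, chr17:24251524-24251549, minus strand: acagccagcgTTTGAAttcgcgtcct
Ccnf, chr17:24251408-24251433, minus strand: tcccggcgcgTTTGAAaacggggcgg
Cdk1, chr10:69352968-69352993, minus strand: gattggctccTTTGAAcgtctacgtg
Cdk1, chr10:69352912-69352937, minus strand: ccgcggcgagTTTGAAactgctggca
The sites began 3 bases before the TSS in Ccnb2, 14 in Ccnf and 45 in Cdk1, and the other site of each gene lay further upstream or, in Cdk1, past the TSS. Ccnb1 had no CHR in its window, and it had 2 CCAAT boxes and 3 GC boxes. GC boxes were found in 36 windows, or 80%, beside 45% of protein-coding promoters, and the gap was smaller in the CpG-rich class, with 84.2% beside 73.5%. CCAAT boxes were found in 20, or 44.4%, beside 38.7%, and in the CpG-rich class in 47.4%, beside 37.5%. All 20 genes with a CCAAT box were marked, beside 88.9% of the cell cycle genes as a whole and 50.7% of protein-coding promoters with this box. A TATA box was found at Cdk6 alone, or 2.22%, beside 12.4%, and in the CpG-rich class 2.63% beside 5.75%. A CRE was found at Cdkn2b alone, or 2.22%, beside 2.46%.

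Peaks that lay outside every protein-coding promoter window were counted within 50 kb of a TSS. The median was 1 per cell cycle gene, beside 0 for all protein-coding genes and 1 for marked ones, and 19 of the 45 genes, or 42.2%, had none, beside 54.1% of all protein-coding genes and 38.9% of marked ones. Cdk1 had the most, 6. Of these 5 lay downstream of its TSS, from 16.5 kb on, and 1 lay 5.5 kb upstream. Cdk6 had 5, of which 4 lay upstream and the widest, 9237 bp, lay 30.7 kb before the TSS. Ccnd3 had 5, with 3 in its introns of 5345 to 10853 bp. Cdk17 had 5 within that distance. Counted over the whole of Cdk17, 6 peaks lay in its introns, from 4.08 to 97.2 kb past the main TSS, and the last 2 of them overlapped Elk3. Cdkn1b had a peak of 6645 bp past its end, 6.48 to 13.1 kb from the TSS, wider than its promoter peak of 2774 bp. Apart from these peaks, the gene bodies of Ccnf, E2f1 and E2f4, like that of Rb1, overlapped a peak at the promoter of a neighbouring gene, Tedc2, Necab3 and Elmo3. No peak was assigned to a target gene.

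Other genes of the cell cycle machinery, from lists of partners and regulators, were marked at 33 of 34 genes. This was 97.1% (85.1 to 99.5%), beside 51.0% of all protein-coding genes. The lists were chosen by hand with earlier results of these data known. The E2F partners and MuvB complex were marked at 8 of 9, cyclin and CDK partners and opposing kinases at 7 of 7, ubiquitin ligase adaptors and the anaphase-promoting complex at 9 of 9, and mitotic and checkpoint kinases at 9 of 9. The unmarked gene was Rbbp4, a histone-binding subunit of MuvB, whose nearest peak lay 17.2 kb away. Of the inhibitors that the rule left out, Cdkn1a was marked by a peak of 10968 bp and Cdkn1c was not marked, with the nearest peak 85.5 kb away.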

How the data were processed

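H3K27ac ChIP-seq of mESCs was analysed from the authors' deposited list of peak positions in base pairs of mm10, read as 1 list for both control replicates. Its columns hold coordinates and no signal. Per the methods and the labels, the authors trimmed reads with Cutadapt, aligned them with BWA to the mouse and human genomes and filtered them with Picard 2.9.1 (duplicates) and SAMtools 1.4 (mapping quality). LanceOtron gave the peaks, and neighbours up to 2 kb apart were joined. Joining widens peaks, and their removal of low peaks and of peaks away from ATAC-seq summits leaves promoters unlisted.

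Peaks were joined to GENCODE M21 (GRCm38, an earlier release than the study's) in Python 3.11.15 with numpy 2.4.6, scipy 1.17.1 and pysam 0.24.0. A promoter was marked by an overlap of at least 1 bp with a window of 1 kb on each side of a TSS. The median's interval comes from order statistics. The symbol rule also covers Cdk3, which is not protein-coding in this release. The scripts were tested on simulated data, where 4000 of 4000 simulated promoter calls, 500 of 500 distances and 200 of 200 planted motifs were recovered.

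The members and gene lists were chosen with earlier results of these data known. The rule for naming took every unmarked gene, the 10 widest and 5 narrowest promoter peaks, and all members within their role. Regions beyond it (outside-promoter peaks, motif sites, neighbours) were singled out once their values had been seen. The promoter of Cdc25c was also to be printed and is not reported here. No test was made, since 1 list holds no replicates. Read depths and treatment effects given in the study's supplements were not used. Alternatives were other windows, isoforms, peak filters, overlaps, sequence windows and distances, and, chosen after seeing the data, the CpG split and RefSeq promoter windows.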

Additional observations from a re-analysis of the deposited data

How the results depend on the processing

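The number of marked cell cycle genes was 40 and stayed between 39 and 41 of 45 with windows of 500 bp or 2 kb, other isoform choices, TSSs inside a peak, peaks of at least 1 kb and overlaps of at least 500 bp. It was 29 by peak midpoint, a rule that a wide peak can fail by construction, beside 38.2% of protein-coding genes. Among genes with no other TSS within 2 kb it was 36 of 41, beside 45.7%. Of 405 single calls under alternatives 15 changed, at 13 genes, 13 to unmarked and 2 to marked, both of Ccnd2. With 500 bases on each side of the TSS, motifs were found in more promoters by construction: E2F in 16 (35.6%, beside 7.28% of protein-coding promoters), CHR in 23 (51.1%, beside 47.2%), CCAAT in 37 (82.2%, beside 70.1%), TATA in 3 (6.67%, beside 31.6%) and CRE in 2 (4.44%, beside 3.35%). With RefSeq windows CCAAT was found in 60%, beside 42.1%, and CHR in 31.4%, beside 19.4%; with the APPRIS isoform the shares were 40% beside 38.6% and 24.4% beside 17.2%. Within 100 kb the median number of outside-promoter peaks was 2, beside 1 for all protein-coding genes and 2 for marked ones. Within 20 kb it was 0 for all of these sets. At that distance 73.3% of the cell cycle genes had none, beside 73.7% of all protein-coding genes and 63.1% of marked ones. In the CpG-poor class 5 genes were marked, since it holds 7.

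No paired analysis was possible because the control peaks come as 1 list without replicate values and no treated sample was analysed. For the same reason none of the replicates was left out in turn. The list gives no reads per peak, so acetylation below the authors' height thresholds at the unmarked promoters was not measured here.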
